A study of Rattus norvegicus with 8 samples.

Results

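Serine, glycine and glyoxylate are interconverted and broken down in hepatocytes by a small set of enzymes, of which 10 rat genes were listed for description: Sds, Agxt, Agxt2, Shmt1, Shmt2, Gldc, Hao1, Grhpr, Sardh and Dmgdh. A probe was taken for a gene where the accession printed for it on the array matched a rat RefSeq transcript of that gene. This gave 9 probes for 8 of the 10 genes, and all 8 passed the filter on dim probes, out of 22871 features tested (13338 of them with a gene symbol). Shmt1 and Gldc had no matched probe and were not analysed here. The list was selected on the diet differences of these same arrays, so the differences of its members are given as descriptions.

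The tissue was liver from male rats aged 22 weeks, and total RNA of 8 samples was read on single-colour (Cy3) arrays, a sample to an array. Feeding lasted 14 weeks. Of the samples, 5 were from a high-fat diet, with a disease state of NAFLD (non-alcoholic fatty liver disease) in the labels, and 3 were from standard chow, labelled control. The labels name neither strain nor fat content, and whether the samples are from separate animals is not stated, so SEs and p-values reflect how far these samples spread, which may be technical. In whole liver, fewer cells of a type and less RNA per cell cannot be told apart.

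Serine can be deaminated to pyruvate by serine dehydratase or split by serine hydroxymethyltransferase into glycine and a carbon unit carried on folate. Glycine is cleaved in mitochondria by the glycine cleavage system, and it can also be formed there when dimethylglycine and sarcosine, breakdown products of choline, lose their methyl groups. Glyoxylate arises in peroxisomes from glycolate and in mitochondria from hydroxyproline. Aminotransferases turn it into glycine and a reductase turns it into glycolate, and glyoxylate that escapes both routes can be oxidised to oxalate.

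Each value below is a log2 signal, with the 75th percentile of the array set to 0, and each difference is the high-fat mean minus the chow mean with its SE from a linear model (limma) fitted on all features. Probes differ in how brightly they bind, so levels of different genes are not set against each other. The diets were not balanced over slides, which were inferred from the scan time that arrays shared. High-fat arrays 1 and 4 lay on slide 1 and high-fat arrays 2, 3 and 5 on slide 2. The 3 chow arrays lay on slide 3, so diet and slide cannot be told apart. Slide 1 was scanned on a different day from slides 2 and 3, so its slide and scan day cannot be told apart either. The 75th percentile signal was 725 to 1045 intensity units on the high-fat arrays, against 278 to 559 on chow. This gave a two-sided exact permutation p of 0.0179, the lowest possible with 56 splits and equal after adjustment for the 2 measures compared. Probes above background made up 79.0% to 92.7% on high-fat diet and 66.9% to 71.7% on chow (exact permutation p = 0.0179, adjusted 0.0179). Bright features tended to lie lower on high-fat diet: the median difference was −0.24 in the brightest of 10 equal bins of features and −0.14 in the next, against −0.01 over all features. The dimmest bin had a median of 0.51. Negative differences made up 79% of the brightest bin and 68.2% of the next. All 8 measured members were well above background on all 8 arrays, 3 of them (Agxt2, Grhpr and Shmt2) in the brightest bin and 3 (Sds, Agxt and Hao1) in the next.

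Agxt was the member called lower on high-fat diet, Sds had the largest negative difference of the 8, and Hao1 was the member with the largest positive value, which was not called. Of the 8 measured members 6 had negative differences, with a median of −0.33, where 50.5% of all features were negative and the median was −0.01. An adjusted p under 0.05 was reached by 1 of the 8, Agxt, in the direction of lower signal, in which 0.49% of all features were called (3.07% were called higher and 3.56% in either direction). The 2 diets did not overlap for 3 members, Sds, Agxt and Sardh, all lower on high-fat diet, where 9.17% of all features were separated in that direction, 7.94% in the other and 17.1% in either. Nothing is read from these counts, since the members were chosen with this comparison in view.

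**Figure D1:**
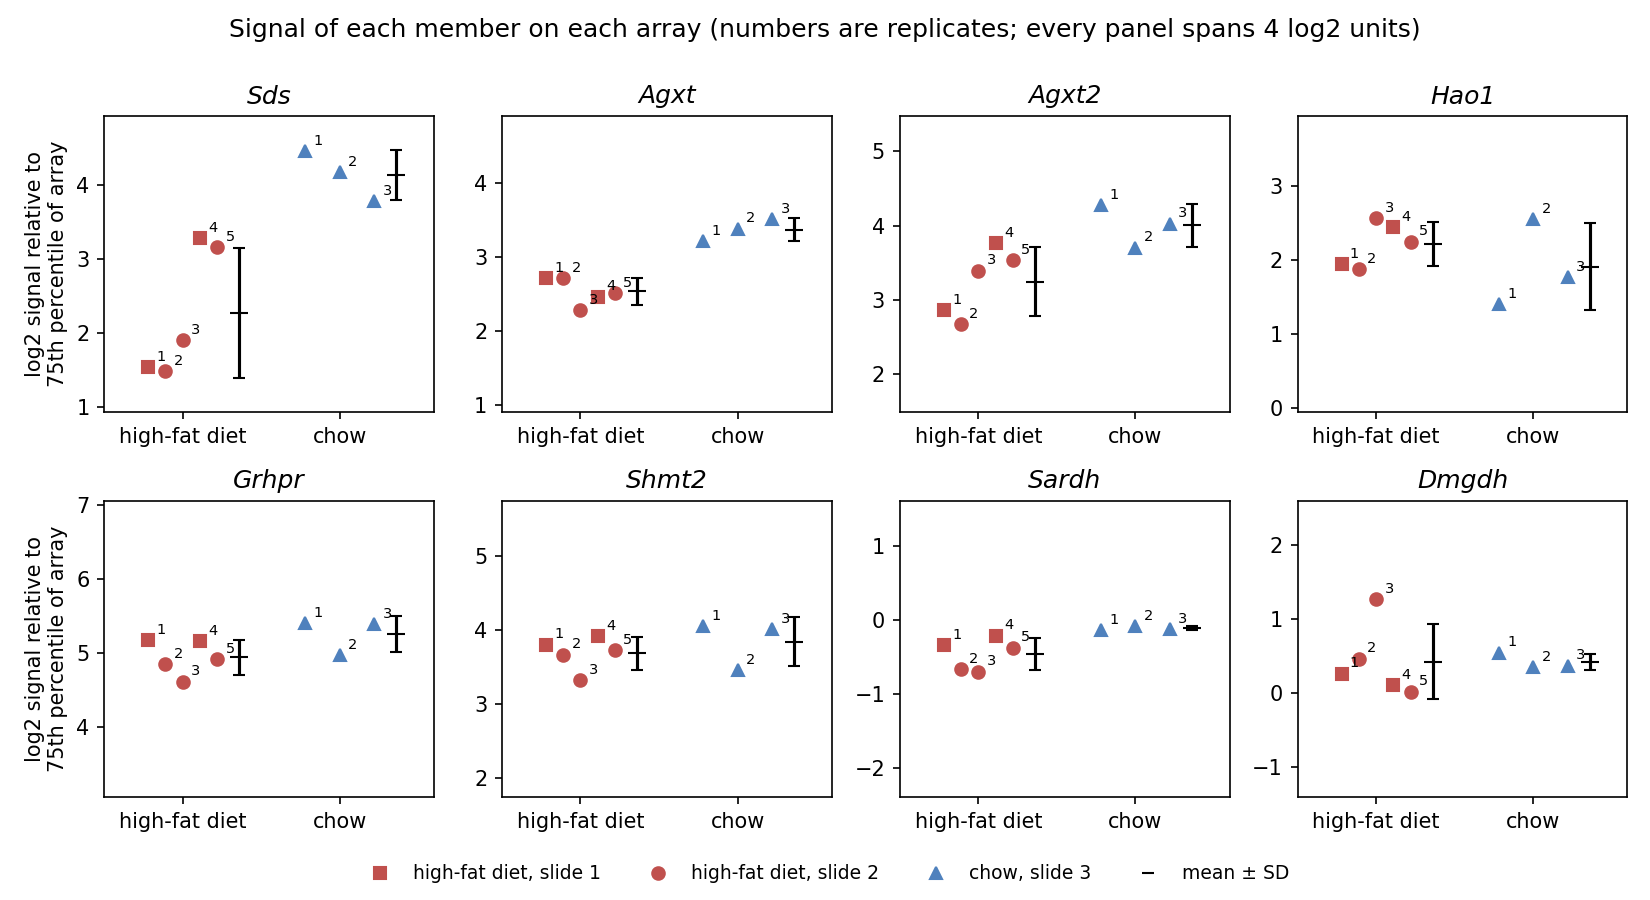
Log2 signal of the 8 measured members relative to the 75th percentile of the array (y axis) on high-fat diet (red) and chow (blue); numbers mark the replicate, the marker shape the slide, and the bar the mean ± SD. For Sds the high-fat arrays lie between 1.49 and 3.29, all below the chow arrays (3.79 to 4.46), and arrays 4 and 5 stand above arrays 1 to 3.

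Sds encodes serine dehydratase, which converts serine to pyruvate and ammonia and is known in rat liver as an enzyme of the periportal zone that glucagon, glucocorticoids and protein-rich food induce. Its signal was 1.54, 1.49, 1.91, 3.29 and 3.16 in high-fat samples 1 to 5, against 4.46, 4.18 and 3.79 in chow samples 1 to 3. Every high-fat array lay below every chow array, and the high-fat arrays themselves fell into a low set of 3 and a higher pair. The means were 2.28 ± 0.88 (SD) in the 5 high-fat samples and 4.14 ± 0.33 (SD) in the 3 chow samples, a log2 difference of −1.86 ± 0.47 (SE), 3.64-fold lower in linear signal, which was not called. The low and the higher set each held arrays of both slides. The high-fat mean on slide 1 was 0.23 above that on slide 2, and against chow the difference was −1.73 for the high-fat arrays of slide 1 and −1.95 for those of slide 2. The call was made for Sds in 3 of 19 alternatives: with array weights (−2.24), with the high-fat arrays of slide 2 alone (−1.95), and without high-fat array 4 (−2.12).

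Shmt2, the mitochondrial serine hydroxymethyltransferase that passes a carbon unit from serine to folate, had 3.80, 3.66, 3.32, 3.91 and 3.73 in high-fat samples 1 to 5, and 4.05, 3.45 and 4.00 in chow samples 1 to 3. The groups overlapped, and chow array 2 lay below 4 of the 5 high-fat arrays. The difference of −0.15 ± 0.20 (SE) was smaller than the SD of either group (0.22 on high-fat diet and 0.33 on chow). It was 0.03 after quantile normalization, after cyclic loess and in the authors' value table, and 0.02 for the high-fat arrays of slide 1 alone. With single arrays left out it ran from −0.34 (without chow array 2) to −0.05 (without chow array 1), so its sign and size rest on the scaling and on which arrays were used.

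Agxt encodes alanine-glyoxylate aminotransferase, which turns glyoxylate into glycine. In rat liver the enzyme is found in both peroxisomes and mitochondria, and its loss in humans leads to an inherited overproduction of oxalate. The signal was 2.72, 2.72, 2.29, 2.47 and 2.51 in high-fat samples 1 to 5, against 3.21, 3.39 and 3.52 in chow samples 1 to 3. The arrays of the diets stood apart, with a gap wider than the spread within either. The mean for Agxt was 2.54 ± 0.18 with high-fat feeding (SD, n = 5) and 3.37 ± 0.15 with chow (SD, n = 3). This is a log2 difference of −0.83 ± 0.16 (SE), or 1.78-fold lower. Against chow it was −0.78 for the high-fat arrays of slide 1 and −0.86 for those of slide 2. The call was kept when single arrays were left out in 2 of the 8 cases (without high-fat array 1 or 3; differences over the 8 fits from −0.91 to −0.76) and was lost with slide as a random block (−0.82). With a normexp background the value shrank to −0.51, or −0.22 relative to the median of all features in that setting, and was not called.

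RefSeq lists 2 start sites for Agxt on GRCr8, 4465 bases apart; which of their transcripts the single Agxt probe reads was not examined. The 250 bases before each start are shown, together with those of Agxt2 and Hao1, because Agxt and Agxt2 had negative differences on high-fat diet and Hao1, which supplies their substrate, had a positive one. The table of promoters had an entry for 8 of the 10 genes; Sds and Dmgdh are the others. The sequences come from RefSeq (GRCr8), run 5′ to 3′ on the strand of the gene, and carry in capitals the matches to any of 7 short motifs described after them.
Agxt, upstream start, chr9:101122543-101122792, plus strand: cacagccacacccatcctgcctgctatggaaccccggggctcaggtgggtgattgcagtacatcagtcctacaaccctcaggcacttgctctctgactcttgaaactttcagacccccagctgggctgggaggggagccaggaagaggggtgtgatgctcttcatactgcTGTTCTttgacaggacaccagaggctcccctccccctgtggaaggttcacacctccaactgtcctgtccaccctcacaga
Agxt, downstream start, chr9:101127008-101127257, plus strand: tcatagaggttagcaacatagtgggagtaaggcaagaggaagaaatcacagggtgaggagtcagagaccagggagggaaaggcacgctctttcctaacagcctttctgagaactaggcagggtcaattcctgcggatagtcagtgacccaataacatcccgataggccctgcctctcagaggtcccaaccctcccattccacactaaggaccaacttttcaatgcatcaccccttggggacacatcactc
Agxt2, chr2:61063166-61063415, plus strand: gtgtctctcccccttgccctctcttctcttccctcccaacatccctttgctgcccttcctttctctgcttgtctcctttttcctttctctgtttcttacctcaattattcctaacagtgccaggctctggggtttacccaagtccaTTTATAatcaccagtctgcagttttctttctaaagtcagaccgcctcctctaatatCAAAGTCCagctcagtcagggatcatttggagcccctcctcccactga
Hao1, chr3:142281495-142281744, minus strand: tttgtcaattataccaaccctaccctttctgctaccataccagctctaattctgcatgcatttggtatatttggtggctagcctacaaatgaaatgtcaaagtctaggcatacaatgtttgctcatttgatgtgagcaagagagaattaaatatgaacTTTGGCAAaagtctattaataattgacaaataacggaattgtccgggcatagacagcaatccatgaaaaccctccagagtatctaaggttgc

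The motifs, searched on both strands and in the same 250 bases of 33469 promoters, were the cAMP response element TGACGTCA (present in 1.59% of promoters), the glucocorticoid receptor half-site TGTTCT (17.5%), a C/EBP-type motif TTGCNNAA (9.22%), an HNF4-type motif CAAAGTCC (1.14%), the HNF1 half-site GTTAAT (6.45%), an ATF4-type motif TGATGNAA (3.4%) and the TATA box TATAAA (12.9%). The upstream Agxt promoter held TGTTCT on the plus strand, starting 80 bases before the start. Agxt2 held CAAAGTCC 48 bases before its start and, on the minus strand, TATAAA at 104 bases. Hao1 held TTGCNNAA on the minus strand at 92 bases. The downstream Agxt promoter held 0 of the 7. Among the other members with a promoter, GTTAAT was found once, before 1 of the 2 starts of Sardh, and the promoters of Shmt1, Shmt2, Gldc and Grhpr held none of the 7 in this window. A match is a description of the sequence and does not show binding.

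Agxt2, a mitochondrial aminotransferase that also uses glyoxylate and clears asymmetric dimethylarginine, had 2.86, 2.67, 3.39, 3.77 and 3.53 in high-fat samples 1 to 5, and 4.28, 3.70 and 4.03 in chow samples 1 to 3. High-fat arrays 1 and 2 were lowest, as for Sds, and high-fat array 4 lay just above chow array 2, so the groups touched. The means were 3.24 ± 0.46 (SD) in the 5 high-fat samples and 4.00 ± 0.29 (SD) in the 3 chow samples (log2 difference −0.76 ± 0.28 SE, not called), or −0.52 relative to the median of features of the same brightness. The sample names of high-fat arrays 1 and 2 share a leading number, as do those of 3 and 4, and the labels do not say what it stands for.

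Hao1 encodes the peroxisomal hydroxyacid oxidase that makes glyoxylate from glycolate in liver. It had 1.95, 1.88, 2.57, 2.44 and 2.25 in high-fat samples 1 to 5, and 1.41, 2.56 and 1.78 in chow samples 1 to 3. The groups overlapped: chow array 2 lay just under the highest high-fat array and chow array 1 was the lowest of all. Its difference was 0.31 ± 0.28 (SE), or 0.45 above the median of features of its brightness, and the sign was positive in all 19 alternatives. The size rested on single chow arrays: 0.05 without chow array 1 and 0.63 without chow array 2.

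Grhpr, which reduces glyoxylate to glycolate and hydroxypyruvate to glycerate, was read by 2 probes with the same accession. The brighter had 5.18, 4.86, 4.62, 5.17 and 4.92 in high-fat samples 1 to 5, and 5.41, 4.98 and 5.39 in chow samples 1 to 3, with overlap between the diets. Its difference was −0.31 ± 0.19 (SE), against a median of −0.24 for features of that brightness. The dimmer probe had −0.13, −0.50, −0.93, −0.28 and −0.57 on high-fat diet and −0.60, −0.61 and −0.45 on chow, a difference of 0.07 ± 0.20 (SE). The probes thus differed in sign. For both, high-fat array 3 was the lowest of that diet, and array 1 the highest.

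Dmgdh and Sardh are related mitochondrial flavoenzymes that take the methyl groups of dimethylglycine and then of sarcosine and leave glycine. Sardh had −0.34, −0.67, −0.70, −0.22 and −0.38 in high-fat samples 1 to 5, and −0.14, −0.09 and −0.13 in chow samples 1 to 3. The chow arrays lay close together, and every high-fat array was below them. The difference was −0.34 ± 0.16 (SE) and was not called. It was −0.16 for the high-fat arrays of slide 1 and −0.46 for those of slide 2, each against chow, and with a normexp background it was 0.01 relative to all features. Dmgdh had 0.27, 0.47, 1.28, 0.11 and 0.02 in high-fat samples 1 to 5, and 0.55, 0.35 and 0.38 in chow samples 1 to 3. High-fat array 3 stood above all other arrays, high-fat array 2 lay within the chow range, and high-fat arrays 1, 4 and 5 lay below it. The difference was 0.00 ± 0.28 (SE), and it was −0.21 without high-fat array 3.

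**Figure D2:**
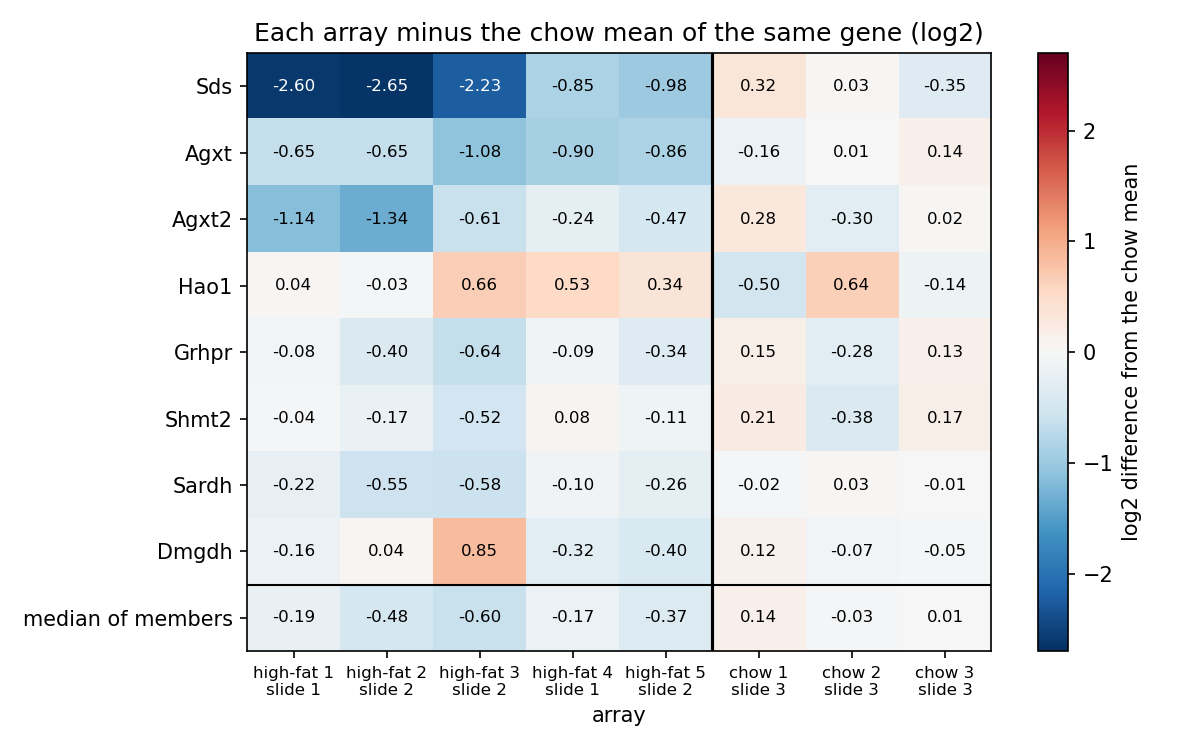
Log2 value of each of the 8 members on each of the 8 arrays (columns, high-fat arrays left of chow) minus the chow mean of the same gene, with the median of the members in the bottom row. Sds reaches −2.65 on high-fat array 2 and −0.85 on array 4, Agxt stays between −1.08 and −0.65 on all 5, and Hao1 and Dmgdh run against the others on high-fat array 3.

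Within the high-fat group the members differed in which arrays were low. Sds spanned 1.80 log2 units among the 5 high-fat arrays and Dmgdh 1.25, while Agxt spanned 0.43. High-fat array 3 was the lowest of its group for Agxt, Shmt2, Grhpr and Sardh and the highest for Hao1 and Dmgdh. Slide differences within the high-fat group (slide 1 minus slide 2) ran from −0.40 for Dmgdh to 0.38 for Grhpr, and for Agxt, Agxt2 and Hao1 they were 0.09, 0.12 and −0.04. The median of the members relative to their chow means was −0.19, −0.48, −0.60, −0.17 and −0.37 in high-fat samples 1 to 5, and 0.14, −0.03 and 0.01 in chow samples 1 to 3. It was lower on the 3 arrays of slide 2 than on the 2 arrays of slide 1.

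**Figure D3:**
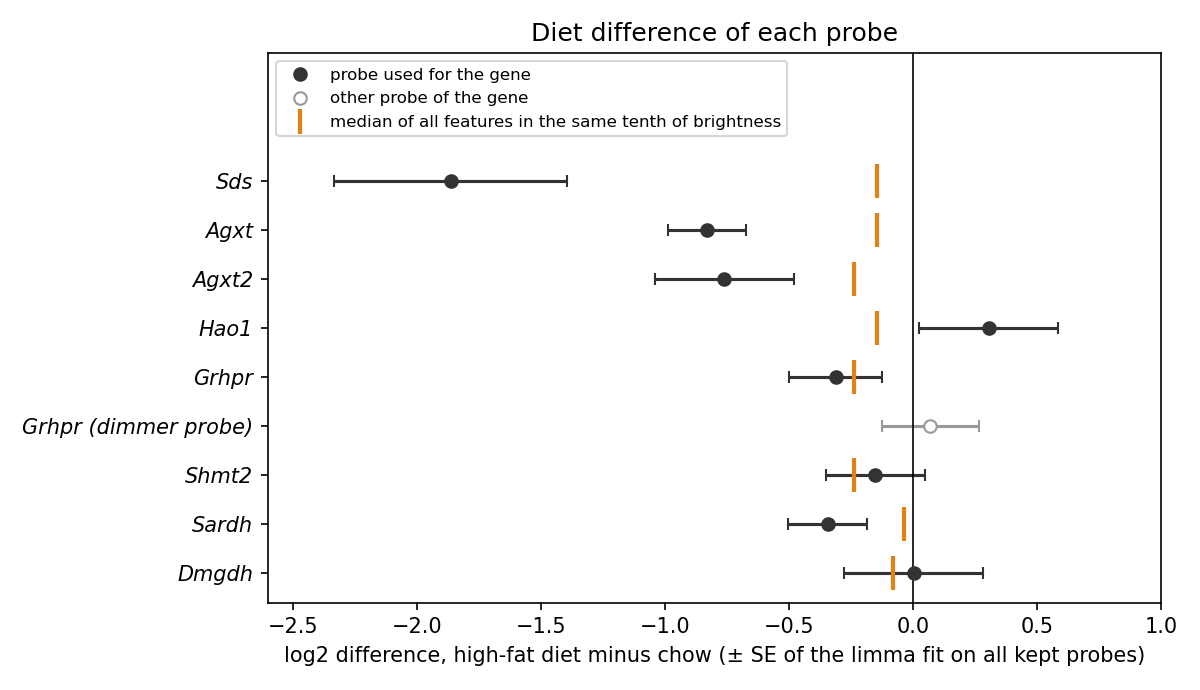
Log2 difference, high-fat diet minus chow, of each of the 9 probes (x axis, bars ± SE), with an orange tick at the median of all features in the same brightness bin. Sds, Agxt, Agxt2 and Sardh lie left of their ticks by more than 1 SE, Hao1 lies right of its tick, and the 2 probes of Grhpr fall on either side of 0.

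Relative to features of the same brightness, Sds was at −1.72, Agxt at −0.69, Agxt2 at −0.52 and Sardh at −0.31, whereas Grhpr was at −0.07, Shmt2 and Dmgdh at 0.08 and Hao1 at 0.45. The values of Grhpr and Shmt2 lay within 0.10 of the median of their bin.

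The 3 genes whose signal was most like that of Sds over the 8 arrays were Grn (r = 0.980), Tgfb1 (r = 0.976) and Phf19 (r = 0.973), out of 10704 features with a symbol that were above background throughout. These correlations are descriptions: all genes share the arrays' scaling, and a diet difference in both genes adds to r over the 8 arrays. Over the 5 high-fat arrays alone, which are among those used to pick the genes, r was 0.985 for Grn. It was 0.9715 for Tgfb1 and 0.995 for Phf19. What the likeness stems from was not tested. Phf19, a Polycomb-associated protein, had −0.14, −0.30, 0.64, 2.47 and 2.21 in high-fat samples 1 to 5, against 3.04, 2.83 and 2.26 in chow samples 1 to 3. It showed the same low set of arrays 1 to 3 and higher pair of arrays 4 and 5 as Sds, and its diet difference of −1.73 ± 0.67 (SE) was not called (limma adjusted p = 0.201). Grn, which encodes progranulin, had 2.49 to 2.92 on high-fat diet and 2.97 to 3.09 on chow (−0.34 ± 0.15 SE, limma adjusted p = 0.258). Tgfb1, a growth factor of fibrosis and immune control, had −2.38 to −1.86 on high-fat diet and −1.69 to −1.43 on chow (−0.61 ± 0.18 SE, limma adjusted p = 0.107).

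In the rest of the pathway, 75 of 80 listed genes were tested, and 0 were called in either direction by limma. At an unadjusted p under 0.05, 22 of the 75 were lower on high-fat diet and 2 were higher, where 9.37% of all features passed that threshold in the lower direction and 20.2% in either. Of the 75, 59 had negative values, with a median of −0.21, or −0.10 relative to features of the same brightness. Over all features 50.5% were negative, but 79% were in the brightest bin and 68.2% in the next. Many of the 75 lay in these bins, and the counts were not compared at like brightness. By list, that relative median was 0.38 for serine synthesis, −0.24 for other uses of serine and 0.16 for glycine cleavage partners. It was 0.02 for glycine and threonine use, −0.10 for folate enzymes and −0.07 for the choline route. It was −0.18 for other glyoxylate genes, −0.13 for carriers and −0.11 for peroxisome import. With array weights 14 of the 75 were called lower and 2 higher, in a setting that called 1576 of all 22871 features lower and 2192 higher.

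**Figure D4:**
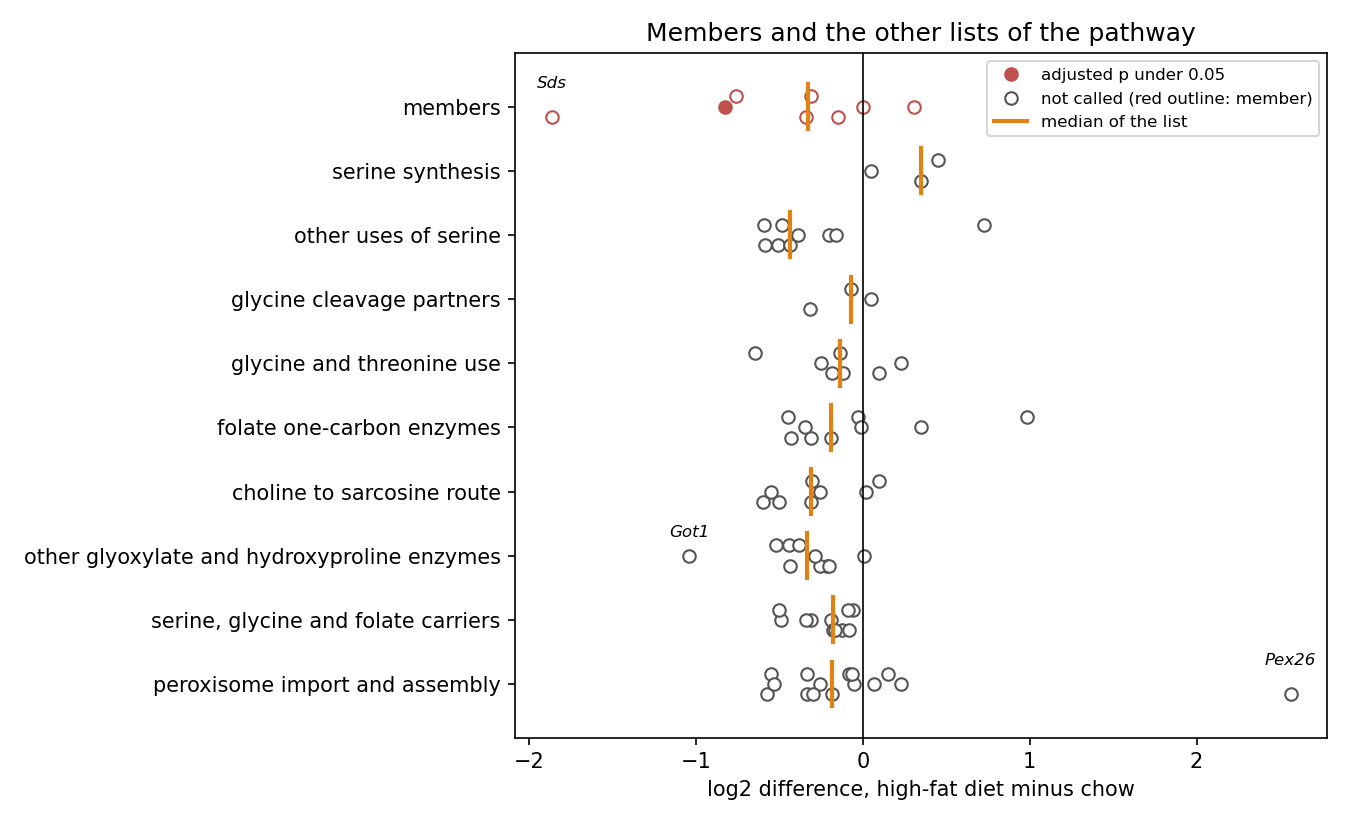
Log2 difference, high-fat diet minus chow, of the 8 members (red) and of the genes in the other 9 lists of the pathway (grey), with filled points called at an adjusted p under 0.05 and an orange bar at each list's median. Agxt is the 1 filled point, the medians of 9 of the 10 rows lie below 0, and serine synthesis lies above 0 (0.35).

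Serine synthesis was the list with positive values throughout, and 0 of its 3 genes were called. Psph, the phosphatase of the last step, had a difference of 0.45 ± 0.23 (SE, limma adjusted p = 0.314). Phgdh, the dehydrogenase of the first step, had −1.10, −0.39, −0.96, 0.81 and 1.11 in high-fat samples 1 to 5, against −0.76, −1.07 and 0.48 in chow samples 1 to 3. High-fat arrays 4 and 5 stood above arrays 1 to 3 for Phgdh as for Sds, and the diet difference was 0.35 ± 0.59 (SE, limma adjusted p = 0.803). Leaving out 1 high-fat array gave 0.60 (array 1), 0.56 (array 3), 0.12 (array 4) or 0.043 (array 5), and leaving out 1 chow array gave 0.19 (array 1), 0.036 (array 2) or 0.81 (array 3). Of the 9 genes of other uses of serine, 8 were negative with a median of −0.44. Cbs, which condenses serine with homocysteine, was at −0.59 ± 0.14 (SE, limma adjusted p = 0.0622) and Ptdss2, a phosphatidylserine synthase, at −0.48 ± 0.15 (adjusted p = 0.121). Relative to features of the same brightness, Cbs was at −0.36 and Ptdss2 at −0.40. The arrays of the diets did not overlap for either gene.

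Of the 3 partners of Gldc in the glycine cleavage system 0 were called. Amt, the aminomethyltransferase, was at −0.32 ± 0.13 (SE, limma adjusted p = 0.224), and Dld, the shared lipoamide dehydrogenase, at −0.07 ± 0.18 (adjusted p = 0.874), which turned to 0.12 after quantile normalization. Among 9 tested folate enzymes, with a median of −0.19, Mthfd1, which interconverts folate-bound carbon units in the cytosol, was at −0.43 ± 0.14 (limma adjusted p = 0.133), and Aldh1l2, the mitochondrial formyl-folate dehydrogenase, at −0.45 ± 0.16 (adjusted p = 0.177). Among 7 genes of glycine and threonine use (median −0.14), Gamt, of creatine synthesis, was at −0.65 ± 0.26 (limma adjusted p = 0.213) and Gatm, the enzyme before it, at 0.23 ± 0.14 (adjusted p = 0.394), or 0.44 as the mean of all its kept probes. In the route from choline to sarcosine (8 genes, median −0.31), Gnmt, which methylates glycine to sarcosine, was at −0.60 ± 0.17 (limma adjusted p = 0.106). Etfb, a subunit of the flavoprotein that accepts electrons from Sardh and Dmgdh, was at −0.50 ± 0.16 (adjusted p = 0.126). Relative to features of the same brightness, Gnmt was at −0.36 and Etfb at −0.27.

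Among 10 other genes of glyoxylate and hydroxyproline metabolism, 9 were negative and the median was −0.33. Got1, the cytosolic aspartate aminotransferase, had 1.53, 1.51, 2.28, 2.07 and 1.83 in high-fat samples 1 to 5, against 2.44, 3.46 and 2.76 in chow samples 1 to 3. The diets did not overlap, and the difference was −1.04 ± 0.28 (SE, limma adjusted p = 0.0837). Hoga1, the aldolase that releases glyoxylate from hydroxyproline in mitochondria, was at −0.44 ± 0.13 (adjusted p = 0.116), or −0.21 relative to features of the same brightness. Its high-fat arrays lay between 3.81 and 4.12 and its chow arrays between 4.42 and 4.49. All 11 tested carriers of serine, glycine and folate were negative (median −0.18, or −0.13 relative to features of the same brightness). Among them were Slc38a3 at −0.49 ± 0.20 (limma adjusted p = 0.226) and Slc38a4 at −0.50 ± 0.23 (adjusted p = 0.261), both sodium-coupled amino acid transporters.

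Of 15 genes of peroxisome import and assembly, the machinery on which Hao1 and peroxisomal Agxt depend, 11 were negative, the median was −0.19 and 0 were called. Pex6, an ATPase that recycles the import receptor, was at −0.55 ± 0.17 (limma adjusted p = 0.115). Pex26, its anchor on the peroxisome, was at 2.56 ± 0.58 (adjusted p = 0.0532). It had −0.26 and −0.27 on the high-fat arrays of slide 1, −2.37, −2.36 and −2.31 on those of slide 2, and −4.05, −4.24 and −3.94 on the chow arrays of slide 3. The 3 slides thus gave separate levels, and the gap between slides within the high-fat group was 2.08.

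Sds is a periportal gene in rat liver, so genes of both zones were set beside it. Of 9 periportal markers 2 were called lower (Gls2 and Ass1, named after their values were seen), where 0.49% of all features were called lower. Of the 9, 7 were negative and 2 positive. The median was −0.19, or 0.02 relative to features of the same brightness. Alb, albumin, was at −0.29 ± 0.20 (SE, limma adjusted p = 0.462), and Hal, the histidine ammonia-lyase, was at −0.49 ± 0.18 (SE, limma adjusted p = 0.179). Of 9 tested pericentral markers 0 were called and the median was −0.20, or 0.03 relative to features of the same brightness. Glul, glutamine synthetase of the innermost pericentral cells, had 3.56, 2.79, 3.04, 3.20 and 2.39 in high-fat samples 1 to 5, against 1.44, 2.02 and 2.09 in chow samples 1 to 3, a difference of 1.15 ± 0.28 (limma adjusted p = 0.0655). Glul was called after quantile normalization (1.25, adjusted p = 0.0267) and with cyclic loess, array weights, the authors' value table, the high-fat arrays of slide 1 alone or high-fat array 5 left out; over all 19 alternatives its adjusted p ran from 0.0169 to 0.542. Cyp2e1, a pericentral cytochrome, was at −0.20 ± 0.17 (adjusted p = 0.549), and turned to 0.04 after quantile normalization. Of 7 tested genes that glucagon and cAMP induce, 0 were called and 5 were negative. Their median was −0.15, or 0.02 relative to features of the same brightness. Pck1, the gluconeogenic carboxykinase, had the highest value of that list, at 0.27 ± 0.21 (limma adjusted p = 0.521). Of 7 genes that glucocorticoids induce 0 were called, with a median of 0.25, or −0.08 relative to features of the same brightness.

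Hepatocyte markers were negative in 8 of 8 cases (median −0.42, or −0.19 relative to features of the same brightness, 0 called). Their summed signal ran from 653 to 742 times the 75th percentile signal in high-fat samples and from 673 to 1113 times in chow samples. Ttr, transthyretin, was at −0.55 ± 0.20 (SE, limma adjusted p = 0.172). The part of this shift in the members' differences was not tested. Kidney also expresses Agxt2, Sardh and Dmgdh. The 5 tested kidney tubule markers summed to 0.562 to 1.03 on high-fat diet and 0.527 to 0.786 on chow. Of the 5, 2 were not well above background on any chow array. These 2 passed the filter through high-fat arrays alone and could hardly come out lower. All 5 were positive (median 0.36), from which nothing is read, and 0 were called. Aqp2 was at 0.36 ± 0.19 (SE, limma adjusted p = 0.339). Markers of Kupffer cells and macrophages (7 tested) summed to 19.1 to 25.2 on high-fat diet and 24.3 to 33.0 on chow. Clec4f, the marker with the highest mean signal among them, was at −0.59 ± 0.16 (SE, limma adjusted p = 0.0864), whereas 4 of the 7 were positive, the median was 0.13 and 0 were called. Of the 7 stellate, 5 endothelial, 4 cholangiocyte, 4 lymphocyte and 4 red blood cell markers tested, 0 were called. The stellate median was −0.47, with 4 of 7 negative and, at an unadjusted p under 0.05, 3 lower and 1 higher. The medians were −0.11 for endothelial, −0.01 for cholangiocyte, 0.03 for lymphocyte and −0.16 for red blood cell markers. The marker with the highest mean signal in each list was at the following difference, with its SE: Lrat, opposite in sign to its list's median (0.44 ± 0.14), Kdr (−0.11 ± 0.13), Epcam (−0.32 ± 0.32), Cd3d (0.05 ± 0.19) and Hbb (−0.12 ± 0.20). Pancreas markers had a median of 0.09. Of the 8, 1 was called, higher (Ins1, named after its value was seen), where 3.07% of all features were. Of these markers 3 were not well above background on any chow array. Those 3 passed the filter through high-fat arrays alone and could hardly come out lower, and nothing is read from the call. Cpb1, a pancreatic carboxypeptidase, was at −0.44 ± 0.53 (SE). Of 4 adipocyte and muscle markers (median 1.13), none well above background on any chow array, 2 were called higher (Ckm and, named after its value was seen, Acta1). All 4 passed the filter through high-fat arrays alone, so they could hardly come out lower, and nothing is read from these calls. Ckm, muscle creatine kinase, exceeded background in all 5 high-fat samples and in 0 chow samples and was at least 3.31-fold higher (limma adjusted p = 0.0029), a bound that raises each chow value to the lowest signal above background on its array.

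**Figure D5:**
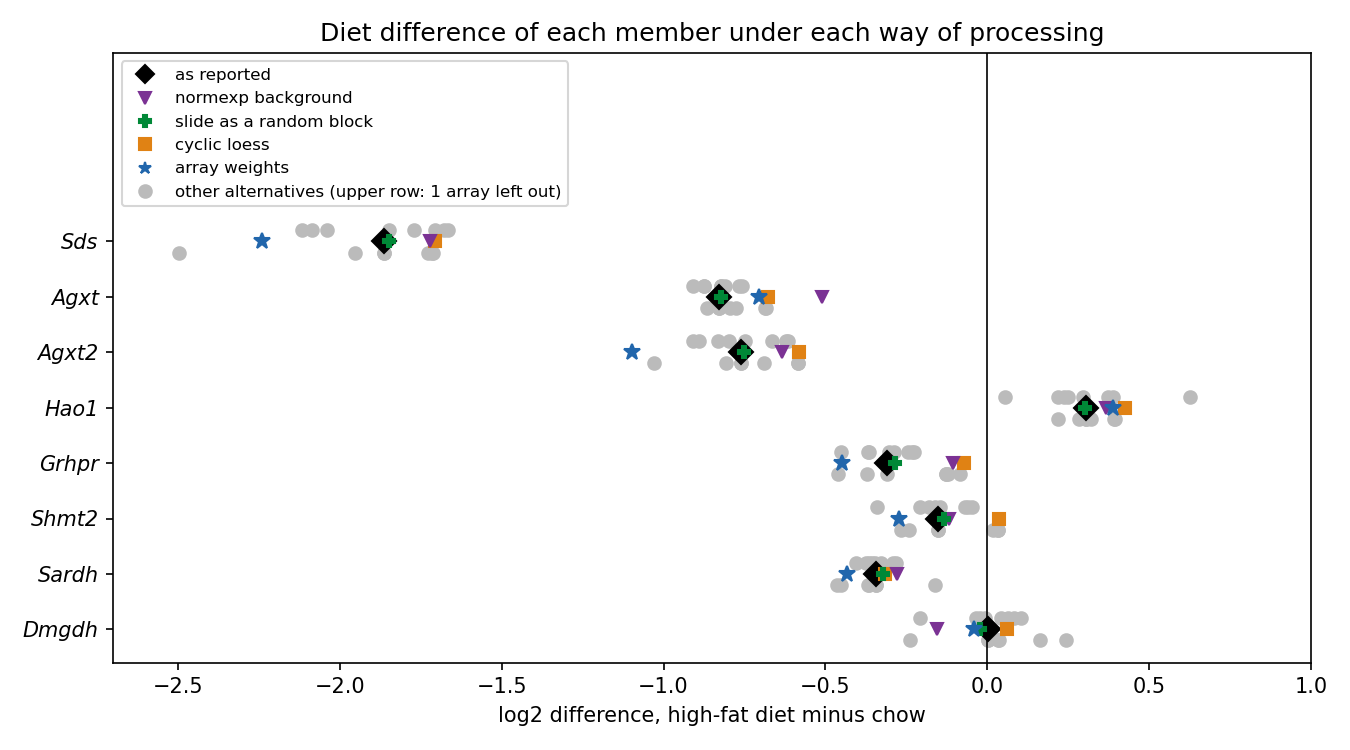
Log2 difference, high-fat diet minus chow, of each member as reported (black diamonds) and under 19 alternatives, with coloured marks for 4 of them and grey points for the others. Sds, Agxt, Agxt2, Grhpr and Sardh stay below 0 and Hao1 above 0 throughout, while Shmt2 and Dmgdh lie on both sides of 0.

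The sign of the difference held in all 19 alternatives for Sds (−2.50 to −1.67), Agxt (−0.91 to −0.51), Agxt2 (−1.10 to −0.58), Grhpr (−0.46 to −0.07), Sardh (−0.46 to −0.16) and Hao1 (0.05 to 0.63). Shmt2 was negative in 15 of 19 and Dmgdh in 8 of 19. For members read by a single probe, dropping the filter or averaging a gene's probes returned the reported value, so these settings could not change a sign. The authors' table nearly repeated quantile normalization (Sds at −1.71 in both). With a normexp background, where the median of all features was −0.29, Sds was at −1.43 and Hao1 at 0.66 relative to that median, and Agxt2 at −0.34, while Grhpr was at 0.18. The median over the members relative to all features was then 0.07, against −0.32 with the 75th percentile alone.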

How the data were processed

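Groups, replicate numbers, diet length and age were taken from the sample labels. The scans were read with Agilent Feature Extraction 11.0.1.1, per the submitters' processing notes. The deposited scanner files hold processed signal as intensity, background-subtracted but not scaled between arrays, with 0 or 1 marks for spots above background, saturated or outlying, per the file headers. The authors' deposited value table holds log2 values. How it was made is not given in the sources used here; its columns have medians of 6.423 to 6.424, as after quantile normalization, and follow the log2 processed signal array by array (correlations 0.995 to 0.999).

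From these files, control and outlier spots (331 to 550 per array of 44254 spots) were left out, and 0 spots were saturated. The log2 processed signal was averaged over spots of a probe, and the 75th percentile of these probe values on the array was then subtracted. Probes were kept if a share of 0.5 or more of their spots exceeded background clearly on 3 or more of 8 arrays (25629 of 30367 probes), and the probe with the highest mean stood for its gene. Accessions matched 18005 probes to 15168 rat symbols in RefSeq. High-fat diet was compared with chow in limma 3.58.1 (R 4.3.3), with Benjamini-Hochberg adjustment over 22871 features, and a feature was called at an adjusted p under 0.05. The fit was run on simulated arrays with independent noise, without slide effects or a brightness trend, so that run does not bear on those limits. Arrays limit the precision through their number, 5 and 3.

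The members and lists were chosen with earlier results of these data known. The text names all members, the 2 genes of smallest adjusted p in each pathway list, Glul, Cyp2e1, Hal and Pck1, the marker with the highest mean in each marker list, and the 3 genes that correlate best with Sds. The alternatives were quantile and cyclic loess normalization, a normexp background (offset 50), no filter, the mean of a gene's probes, slide as a random block, each slide's high-fat arrays alone, array weights, the replicate block, the authors' table, and each array left out.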

Additional observations from a re-analysis of the deposited data

How the results depend on the processing

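Of the 8 members, 1 was called lower as reported. The count was 0 with a normexp background, with slide as a random block, with the high-fat arrays of slide 1 alone and with the replicate block. It was 2 with those of slide 2 alone (Sds and Agxt) and 3 with array weights (Sds, Agxt and Agxt2). With single arrays left out it ran from 0 to 1: leaving out high-fat array 2 or 5, or any 1 chow array, gave 0, and leaving out high-fat array 4 gave 1, where the call was Sds in place of Agxt. Of the 75 other pathway genes, 0 were called lower as reported, 14 with array weights, 3 with slide 2 alone (Cbs, Etfb and Pex16) and 0 to 1 with single arrays left out (Ldha without chow array 2); 0 were called higher as reported, 2 with array weights, 1 with slide 1 alone and 1 with slide 2 alone (Pex26 in both). The difference of Cyp2e1 reversed to 0.042 (quantile), 0.081 (cyclic loess) and 0.042 (authors' table), and that of Dld to 0.12 (quantile), 0.13 (cyclic loess), 0.12 (normexp), 0.12 (authors' table), 0.15 (slide 1 alone); with single arrays left out it ran from −0.14 to 0.037, positive without high-fat array 3 (0.025) or chow array 1 (0.037). Phgdh reversed to −0.36 with the replicate block. The cause of these changes was not tested. Over all features, 703 were called higher and 112 lower as reported, 798 and 294 after quantile normalization, 981 and 314 after cyclic loess, 830 and 310 in the authors' table, 699 and 396 with no filter, 132 and 17 with normexp, 84 and 0 with slide as a random block, 2192 and 1576 with array weights, 998 and 981 with slide 1 alone, 2519 and 383 with slide 2 alone, and 4 and 0 with the replicate block; 374 to 789 were called in all with an array left out. The median of all features was −0.29 with normexp and −0.13 with slide 1 alone, against −0.01 as reported. The members' median ran from −0.46 to −0.19. Same-numbered arrays of the 2 diets deviated together at correlations of 0.05, 0.03 and 0.07, and differently numbered ones at −0.115 to 0.075. With so few arrays this cannot settle whether samples were paired, and the numbers were not taken to pair them. Slide and diet cannot be told apart, and the chow arrays were dimmer.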
